A study of Mus musculus with 2 samples.

Results

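The 10 genes described here are the CC chemokines Ccl2, Ccl3, Ccl4, Ccl6, Ccl7, Ccl8, Ccl9, Ccl12 and Ccl24, which myeloid cells secrete, and the receptor Ccr2. They were taken by name from the 27998 genes of the count tables. Single-cell suspensions of regenerating mouse tibialis anterior, a muscle of the lower leg, were profiled with the 10x Chromium 3' v3 chemistry at day 2 and at day 7 after an injection of notexin, which is a toxin of snake venom that kills muscle fibres and lets them regrow. Each day was 1 library from 1 C57BL/6J mouse with no engineered allele, digested with collagenase and dispase and depleted of erythrocytes, and cells were not sorted. Both libraries were from injured muscle, so there was no uninjured control, and with 1 library per day no test of the days was possible. Intervals below are at 95% and cover the error of counting alone, so they describe these 2 libraries and not the spread between mice.

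The sample labels give both mice as female and 7 months old, whereas the deposited cell annotation gives both as male, and the day 2 mouse as 4 months old. Counts of Xist, the RNA of the silenced X chromosome, were 5 and 1 in the 2 libraries, while 4 Y-linked genes together had 6575 and 4856, so both libraries went against the label of female. Mouse, age and day therefore cannot be told apart in any comparison of the days. A total of 3178 cells at day 2 and 3196 at day 7 carried a cell type name and passed the study's limits on quality, with 34026345 and 27620535 counts and a median of 9058 and 6583 counts per cell. Of the called barcode sequences 4 occurred in both libraries, and 1 of these was among the cells used. Markers of the named types were where they belonged, with exceptions that are given beside the genes they touch. The 7 monocyte or macrophage markers summed to 15154 counts per 1000000 counts (CPM) in monocytes and macrophages at day 2 and 29801 CPM at day 7, against 124 and 109 CPM in fibro-adipogenic progenitors (FAPs), the stromal cells of muscle.

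CC chemokines are small secreted proteins that bind G protein-coupled receptors on leukocytes and draw them along a gradient. Ccr2 sits on inflammatory monocytes and is needed for their exit from bone marrow and their entry into injured tissue, and Ccl2, Ccl7 and Ccl12 are its ligands in the mouse. Mouse Ccl8 acts through Ccr8, Ccl6 and Ccl9 through Ccr1, Ccl3 through Ccr1 among others, and Ccl24, also called eotaxin-2, through the eosinophil receptor Ccr3. After muscle injury neutrophils and Ccr2-bearing monocytes enter first, and macrophages of a repair type follow while muscle stem cells and FAPs divide.

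Of the chemokine genes 8 lie on chromosome 11 in 3 groups of neighbours (GRCm38, GENCODE vM21). Ccl2, Ccl7, Ccl12 and Ccl8 span 81.2 kb from 82035571 to 82116799, Ccl9 and Ccl6 span 20.2 kb from 83572919 to 83593087, and Ccl3 and Ccl4 span 16.8 kb from 83647844 to 83664683. Ccl24 lies on chromosome 5 from 135569937 to 135573049 and Ccr2 on chromosome 9 from 124101950 to 124113557. RefSeq promoter windows (GRCm38.p6) were at hand for 6 of the 10 genes, and Ccl2, Ccl4, Ccl7 and Ccl24 had no entry. The 250 bases upstream of the start are printed for Ccl12 and Ccl8, neighbours on the plus strand, and for Ccl6 and Ccl9, neighbours on the minus strand, because the levels of each pair ran together over cell types. Bases are 5' to 3' on the strand of the gene. Capitals mark matches, on either strand, to the TATA box TATAAA, the AP-1 motif TGANTCA and the ETS core GAGGAA, and the NF-kB motif (GGGA, any 4 bases, CC) was searched too. The windows are chr11:82101595-82101844 for Ccl12, chr11:82114935-82115184 for Ccl8, chr11:83593088-83593337 for Ccl6 and chr11:83578637-83578886 for Ccl9.
Ccl12: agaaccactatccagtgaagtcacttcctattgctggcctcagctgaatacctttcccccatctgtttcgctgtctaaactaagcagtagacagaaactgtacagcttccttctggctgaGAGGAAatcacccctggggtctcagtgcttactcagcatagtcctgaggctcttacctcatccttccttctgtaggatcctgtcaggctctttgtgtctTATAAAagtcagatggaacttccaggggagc
Ccl8: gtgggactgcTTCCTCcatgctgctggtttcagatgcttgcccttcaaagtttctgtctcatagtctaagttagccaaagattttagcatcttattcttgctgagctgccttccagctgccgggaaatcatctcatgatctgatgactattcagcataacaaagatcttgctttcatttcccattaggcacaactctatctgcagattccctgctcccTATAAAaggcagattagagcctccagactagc
Ccl6: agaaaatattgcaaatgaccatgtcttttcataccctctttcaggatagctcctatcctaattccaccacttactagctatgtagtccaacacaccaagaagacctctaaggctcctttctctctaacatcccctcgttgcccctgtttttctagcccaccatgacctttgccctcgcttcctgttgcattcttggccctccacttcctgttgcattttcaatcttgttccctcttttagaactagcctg
Ccl9: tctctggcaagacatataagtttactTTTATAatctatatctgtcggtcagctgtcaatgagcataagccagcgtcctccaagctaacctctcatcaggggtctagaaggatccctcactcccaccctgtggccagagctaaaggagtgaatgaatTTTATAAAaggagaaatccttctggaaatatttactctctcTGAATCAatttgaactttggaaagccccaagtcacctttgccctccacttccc
Ccl12 holds TATAAA from 31 to 26 bases before the start and Ccl8 from 32 to 27 bases before it. Aligned end to end, these windows shared 161 of 250 bases (64.4%), the highest of the 15 pairs among the 6 windows, while Ccl6 and Ccl9 shared 146 (58.4%) and the pairs ranged from 52.8 to 64.4%. Ccl6 and Ccl9 share a run of 13 bases, GCCCTCCACTTCC. Of 32851 promoter windows of the same length, 12.4% hold TATAAA, 6.75% TGANTCA, 23.3% GAGGAA and 17.6% the NF-kB motif, which 0 of the 6 windows hold. Such matches describe the letters only.

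In monocytes and macrophages as a whole, 8 of the 10 genes were lower at day 7 than at day 2 by more than 2-fold and 2, Ccl3 and Ccl4, were higher by more than 2-fold. With each cell given the same weight, Ccr2 was under 2-fold (log2 ratio -0.89) and 7 were lower past it. The class holds every annotated type named as monocyte or macrophage and had 1292 cells at day 2 and 757 at day 7. Of 11318 genes with at least 20 counts there, 12.8% were lower past 2-fold and 19.3% were higher. The median log2 ratio of day 7 to day 2 was -2.71 over the 10 genes and -0.02 over all genes tested. Ordered from the largest fall, Ccl7 stood 12th, Ccl24 20th, Ccl2 29th and Ccl12 30th of the 11318 genes. The 16 genes of a list of dissociation stress, Fos and Jun among them, summed to 9606 CPM at day 2 and 15402 CPM at day 7 in this class, with a median log2 ratio of 0.67, 7 higher and 2 lower past 2-fold, and their part in the changes below was not tested.

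**Figure D1:**
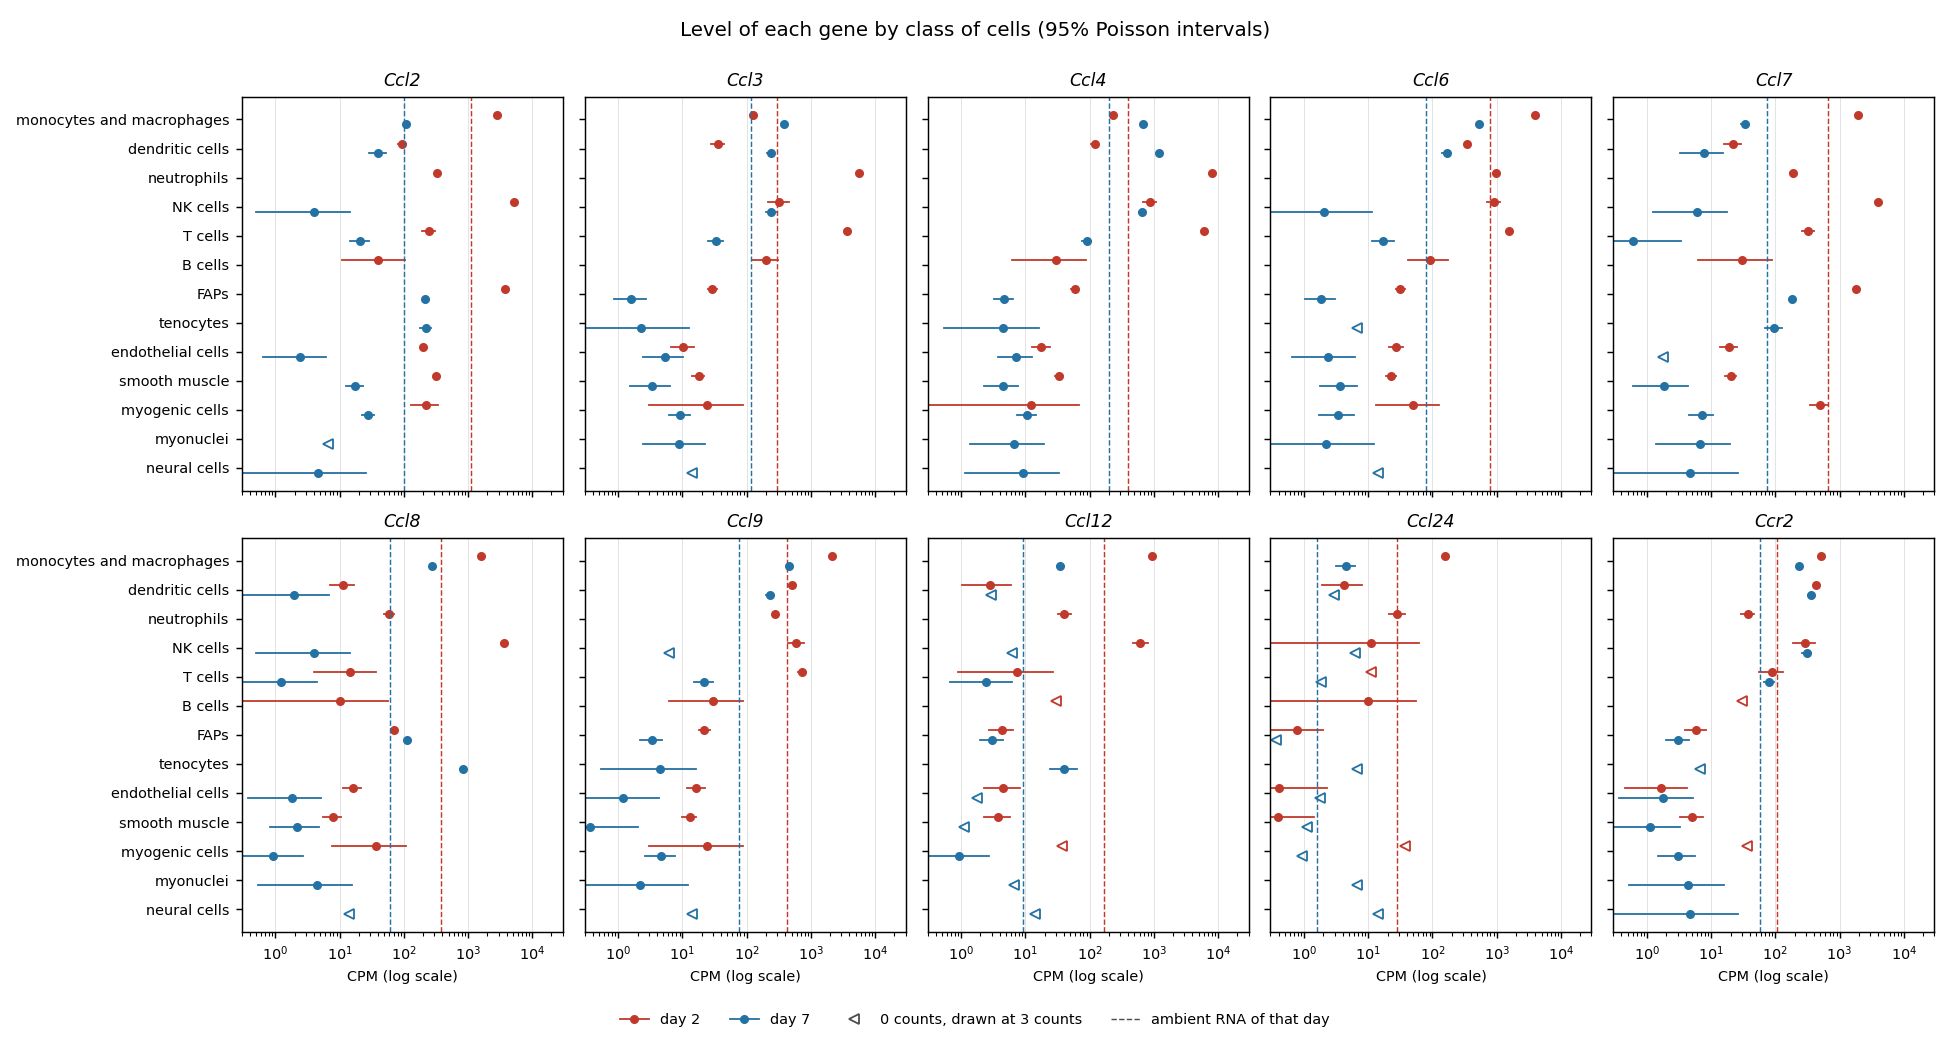
Level of each gene (CPM, log axis) in each class of cells with at least 20 cells, at day 2 (red) and day 7 (blue). Points are sums over cells, bars are 95% Poisson intervals, open triangles mark 0 counts drawn at the level of 3 counts, and dashed lines give the level in ambient RNA of that day. Ccl3 and Ccl4 were highest in neutrophils at day 2 (5599 and 7951 CPM), and Ccl2 and Ccl7 stood above the other non-immune classes in FAPs (3748 and 1781 CPM). The day 2 points of NK cells for Ccl2, Ccl6, Ccl7, Ccl8, Ccl9 and Ccl12 and the day 7 point of tenocytes for Ccl8 each rest on 1 barcode. The day 2 points of T cells for Ccl3 and Ccl4 lie almost wholly in barcodes with basophil and mast cell markers.

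All 3 Ccr2 ligands were far lower at day 7 than at day 2. Ccl2, the main monocyte attractant, stood at 2873 CPM in monocytes and macrophages at day 2 and at 107 CPM at day 7, a 26.8-fold fall (log2 ratio -4.75, -4.85 to -4.65). Ccl7 went from 1969 to 33.1 CPM, a 59.5-fold fall (log2 ratio -5.89, -6.08 to -5.71). Ccl12, a rodent gene close in sequence to Ccl2, went from 941 to 35.1 CPM, a 26.8-fold fall (log2 ratio -4.74, -4.93 to -4.57). All 3 fell in each of the 5 monocyte and macrophage types that had at least 50 cells in both libraries. For Ccl2 the fall ranged from 11.8-fold in M2 macrophages with low Cx3cr1 to 35.5-fold in patrolling monocytes. For Ccl7 it was 26.9-fold in the same M2 cells and 133-fold in patrolling monocytes, and it was largest in inflammatory monocytes, where 3 counts were left at day 7 against 2317 at day 2 (log2 ratio -7.41, -9.69 to -5.87).

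Among the 6 monocyte and macrophage types at day 2, Ccl2 was highest in the Cxcl10+ monocytes (4273 CPM, 38 cells) and lowest in M2 macrophages with high Cx3cr1 (1301 CPM, 82 cells). The 6 intervals did not meet, but they leave out the spread between cells. A single Cxcl10+ barcode held 403 of the 1687 Ccl2 counts of its type, and without it the level was 3389 CPM, the same as in M2 macrophages with low Cx3cr1 (3400 CPM). Ccl12 varied more between types than Ccl2 did. It ran from 2188 CPM in the Cxcl10+ monocytes to 157 CPM in inflammatory monocytes, although the latter held 2487 CPM of Ccl2. In the Cxcl10+ monocytes 340 of 864 Ccl12 counts were in 1 barcode, and without it the level was 1383 CPM, below the 1552 CPM of M2 macrophages with low Cx3cr1. At day 7 Ccl2 was highest among these types in M2 macrophages with low Cx3cr1 (287 CPM), and the other 5 lay between 69.9 and 111 CPM with intervals that met their neighbours in the order. At day 2 cells with Ccl2 more often had the other Ccr2 ligands. With every cell thinned to 2000 counts, 70.5% of the 1056 day 2 cells with a Ccl2 count also had Ccl7, against 21.4% of the 234 cells without. For Ccl12 the shares were 41.3% and 8.97%. At day 7 they were 21.6 and 2.76% for Ccl7 but 7.84% (3.45 to 14.9%) and 5.53% (3.90 to 7.57%) for Ccl12, which overlap.

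**Figure D2:**
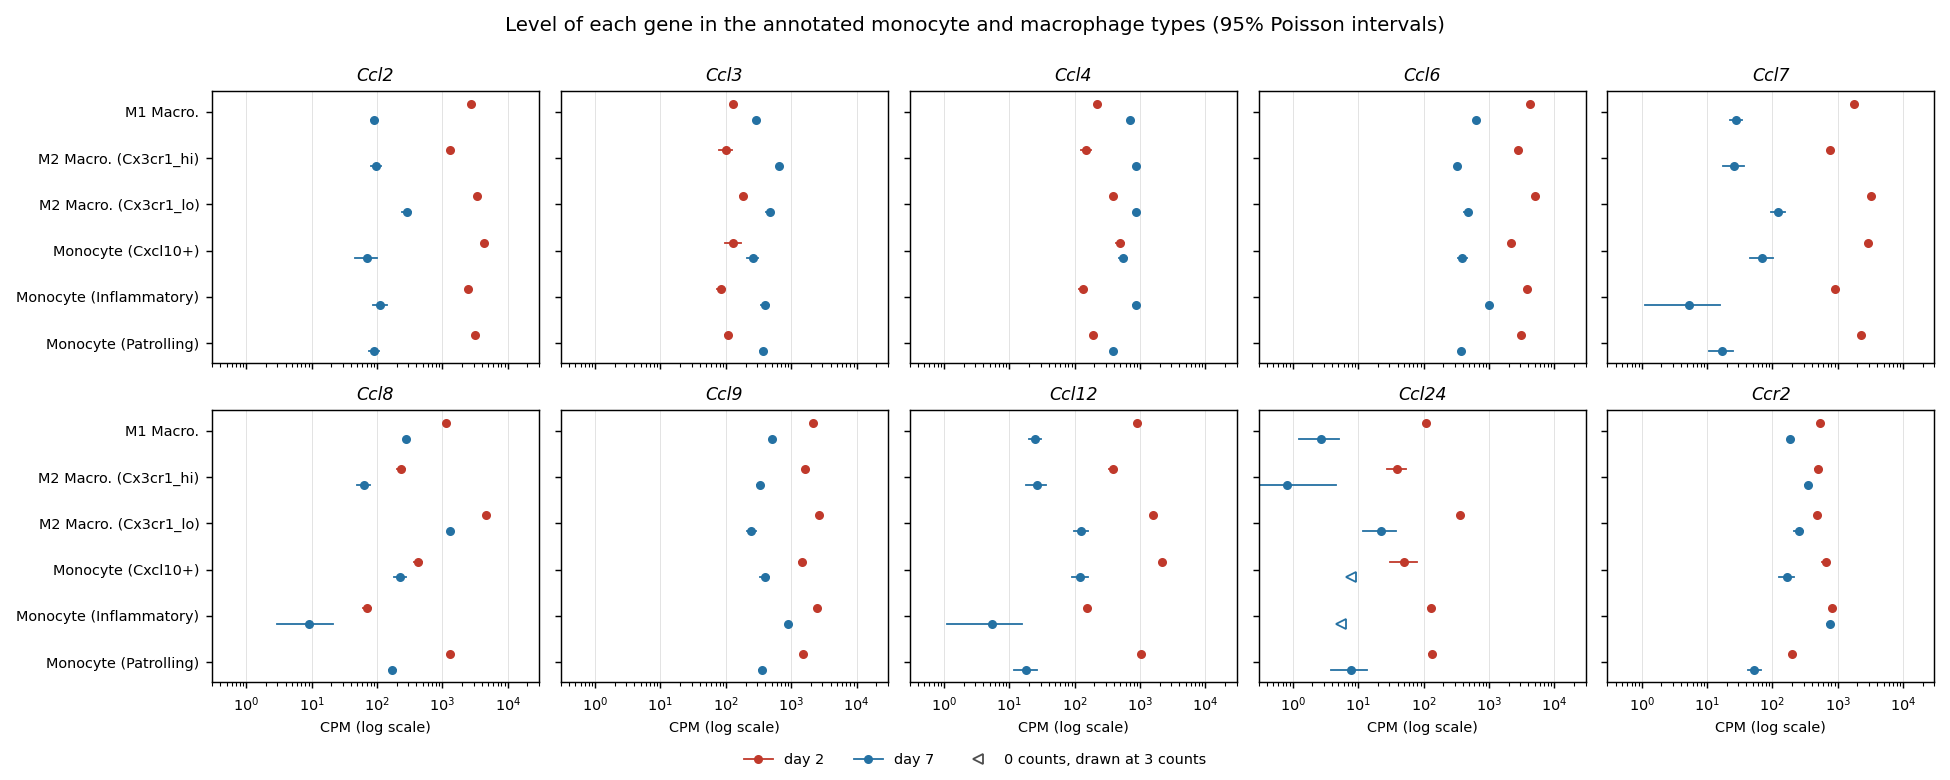
Level of each gene (CPM, log axis) in the 6 annotated monocyte and macrophage types at day 2 (red) and day 7 (blue), with 95% Poisson intervals; open triangles mark 0 counts drawn at the level of 3 counts. Ccl8 was highest in M2 macrophages with low Cx3cr1 on both days (4598 and 1291 CPM), and Ccr2 in inflammatory monocytes held nearly the same place (812 and 762 CPM).

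FAPs held Ccl2 and Ccl7 at levels like those of macrophages at day 2. Ccl2 was at 3748 CPM in 215 FAPs at day 2 and at 216 CPM in 805 FAPs at day 7, a 17.3-fold fall (log2 ratio -4.12, -4.19 to -4.05). Ccl7 was at 1781 and 182 CPM, a 9.79-fold fall (log2 ratio -3.29, -3.37 to -3.21). Pro-remodeling FAPs were highest at day 2 (Ccl2 4072 CPM, Ccl7 1999 CPM), then stem FAPs (3567 and 1455 CPM), then adipogenic FAPs (1199 and 792 CPM). At day 7 adipogenic FAPs were highest in Ccl7 (325 CPM) and pro-remodeling FAPs lowest (138 CPM). Ccl2 was at 300.0 CPM in adipogenic FAPs and 195 CPM in pro-remodeling FAPs, and without the richest barcode of each, which held 184 of 494 and 249 of 1147 counts, at 192 and 153 CPM. These levels did not come with macrophage genes. Only 3 of the 215 day 2 FAPs had 3 or more counts of Csf1r, Adgre1, C1qa and Fcgr1, and without them Ccl2 was at 3767 CPM and Ccl7 at 1787 CPM. Ccl12, by contrast, was at 4.29 CPM in FAPs at day 2 (22 counts) and at 3.07 CPM at day 7 (23 of 25 counts in 1 barcode), so the neighbour of Ccl2 and Ccl7 was nearly absent there. In thinned day 2 FAPs, 85.1% of the 168 cells with Ccl2 also had Ccl7, against 40% of the 45 without.

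Of the 9 genes with enough counts in FAPs, 6 were lower at day 7 past 2-fold and 0 were higher, where 14.0% of 11851 genes were lower and 25.6% higher and the median of all genes was 0.21. Besides Ccl2 and Ccl7 these were Ccl3, Ccl4, Ccl6 and Ccl9, all of them at or below 58.6 CPM at day 2. Without the single richest barcode Ccl3 was at 7.83 CPM and Ccl4 at 9.79 CPM in day 2 FAPs, against 1.60 and 4.66 CPM at day 7. Free RNA at the share removed by the correction would give, on average, 8.72 CPM of Ccl3, 11.5 CPM of Ccl4, 22.6 CPM of Ccl6 and 12.3 CPM of Ccl9 at day 2. With the richest barcode left out for Ccl3 and Ccl4, and the barcodes with macrophage genes for Ccl6 and Ccl9 (18.0 and 15.6 CPM), the day 2 levels were near these values. Of the Ccl3 and Ccl4 counts of day 2 adipogenic FAPs, 110 of 114 and 251 of 252 lay in 1 of 30 barcodes, the only one there with 3 or more counts of neutrophil markers. Without it the levels were 12.1 and 3.03 CPM. FAPs held 27.4% of all Ccl2 counts in cells at day 2 and 60.1% at day 7, and 21.4 and 81.6% of those of Ccl7. Over the same days FAPs went from 6.77 to 25.2% of the cells. Monocytes and macrophages held 67.5% of Ccl2 counts at day 2 and 27.5% at day 7.

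Ccl2 was lower in the cells of the vessel wall. Capillary endothelial cells held 311 CPM at day 2, of which 305 of 384 counts were in 1 barcode and without which the level was 64.5 CPM, and 2.25 CPM at day 7 (2 counts, log2 ratio -7.11, -10.16 to -5.24), and 0 of the 159 day 2 cells had macrophage genes. For smooth muscle cells the levels were 317 and 17.4 CPM, a fall of 18.3-fold. Ccl7 was low there on both days, at 20.4 and 1.85 CPM in smooth muscle cells (log2 ratio -3.46, -5.12 to -2.20) and at 14.6 CPM in capillary cells at day 2 with 0 counts at day 7, at least 4.31-fold lower. Muscle stem cells held Ccl7 at 499.6 CPM at day 2 (40 counts in 21 cells, 23 of them in 1 cell) and at 21.3 CPM in 137 cells at day 7. The natural killer (NK) cells of day 2 were listed at 5148 CPM of Ccl2, the highest of any type with 20 cells. However, 465 of their 466 Ccl2 counts lay in 1 of 21 barcodes, which was also the only one with macrophage genes, and the other 20 were at 14.9 CPM. The same barcode held 355 of 358 Ccl7 counts and 326 of 331 Ccl8 counts of the type.

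Ccl8 was at 1595 CPM in monocytes and macrophages at day 2 and at 276 CPM at day 7, a 5.78-fold fall (log2 ratio -2.53, -2.60 to -2.47). It was highest in M2 macrophages with low Cx3cr1, at 4598 CPM on day 2 and 1291 CPM on day 7, whereas inflammatory monocytes were at 70.3 and 8.98 CPM. The counts were also concentrated in few cells. In thinned day 2 cells the 10% of monocytes and macrophages richest in the gene held 91.0% of the Ccl8 counts, against 40.8% for Ccl2, 67.9% for Ccl12 and 28.5% for Ccl6, but 87.3% for Ccl24, 86.0% for Ccl3 and 84.8% for Ccl4. At day 7 it held 92.6% for Ccl8, against 70.1% for Ccl4, 59.1% for Ccl3, 56.6% for Ccr2, 47.7% for Ccl6 and 46.8% for Ccl9. The share for Ccl2 was 86.4% of 191 thinned counts, and Ccl7 and Ccl12 had fewer thinned counts (70 and 66) than the 76 cells of that set, so no share is given for them. A single M2 barcode held 269 of the 746 Ccl8 counts of its type at day 7, and without it the type was at 839 CPM, still the highest. Cells with a Ccl8 count had Ccr2 less often than cells without. At day 2 the shares were 42.5% of 259 cells (36.4 to 48.7%) and 60.1% of 1031 cells, and at day 7 they were 9.57% of 115 cells (4.87 to 16.5%) and 34.3% of 638 cells. Cells of both kinds come from the same library, so these shares describe cells and not mice.

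In FAPs Ccl8 went the other way. FAPs were at 69.9 CPM at day 2 and at 113 CPM at day 7 (log2 ratio 0.69, 0.52 to 0.87, where the median gene moved by 0.21), and pro-remodeling FAPs rose 2.97-fold from 37.9 to 113 CPM. Stem FAPs did not show this, at 170 CPM (47 cells) and 83.2 CPM (78 cells). Tenocytes, the cells of tendon, were listed at 830 CPM at day 7 in 48 cells, second to the M2 macrophages with low Cx3cr1 among all types. However, 353 of the 371 counts were in 1 barcode, which was not among the 2 with macrophage genes, and the others were at 43.4 CPM. The 16 tenocytes of day 2 were too few to be described. As a result 61.2% of Ccl8 counts at day 7 were in monocytes and macrophages, 27.2% in FAPs and 10.9% in tenocytes, nearly all of it that barcode, against 96.6% in monocytes and macrophages at day 2.

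Ccl6 and Ccl9, ligands of Ccr1, followed each other across cells and days. Ccl6 was at 3989 CPM in monocytes and macrophages at day 2 and at 535.5 CPM at day 7, a 7.45-fold fall (log2 ratio -2.90, -2.94 to -2.85). Ccl9 was at 2147 and 454 CPM, a 4.73-fold fall (log2 ratio -2.24, -2.29 to -2.19). Both fell in each of the 5 types, least in inflammatory monocytes (3.81-fold and 2.72-fold) and most in M2 macrophages with low Cx3cr1 (10.7-fold for each gene). The order of the types changed with this. M2 macrophages with low Cx3cr1 were highest at day 2 (5029 and 2640 CPM), and inflammatory monocytes were highest at day 7 (1004 and 904 CPM). Over the 41 sums of annotated types by day, the log2 levels of Ccl6 and Ccl9 had a Pearson r of 0.98, given as a description because types of 1 library share its depth and its ambient RNA.

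Both genes were spread more evenly over cells than the other ligands. At day 2, 93.0% of thinned monocytes and macrophages had a Ccl6 count and 86.7% a Ccl9 count, and the richest 10% of cells held 28.5 and 30.8% of the counts. At day 7 the shares of cells were 46.5 and 41.6%. Of the Ccl6 and Ccl9 counts in cells, 94.9 and 94.4% were in this class at day 2 and 94.0 and 91.0% at day 7. Dendritic cells held Ccl6 at 349 CPM at day 2 and 166 CPM at day 7, and Ccl9 at 501 and 232 CPM. FAPs were at 31.6 and 22.0 CPM at day 2, or 18.0 and 15.6 CPM without barcodes with macrophage genes, and at 1.84 and 3.31 CPM at day 7. Neutrophils held Ccl6 at 981 CPM and Ccl9 at 277 CPM at day 2, and 793 and 151 CPM in the 669 neutrophils without macrophage genes.

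Ccl24 fell 35.2-fold, from 159 CPM in monocytes and macrophages at day 2 to 4.52 CPM at day 7 (34 counts, log2 ratio -5.14, -5.67 to -4.65). M2 macrophages with low Cx3cr1 led on both days (363 and 22.5 CPM). Inflammatory monocytes had 129 CPM at day 2 and 0 counts at day 7, at least 24.0-fold lower. At day 2 the counts were concentrated, with 87.3% in the richest 10% of thinned cells, and they fell almost wholly within the class (97.3%). All 34 counts of day 7 were in monocytes and macrophages.

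**Figure D3:**
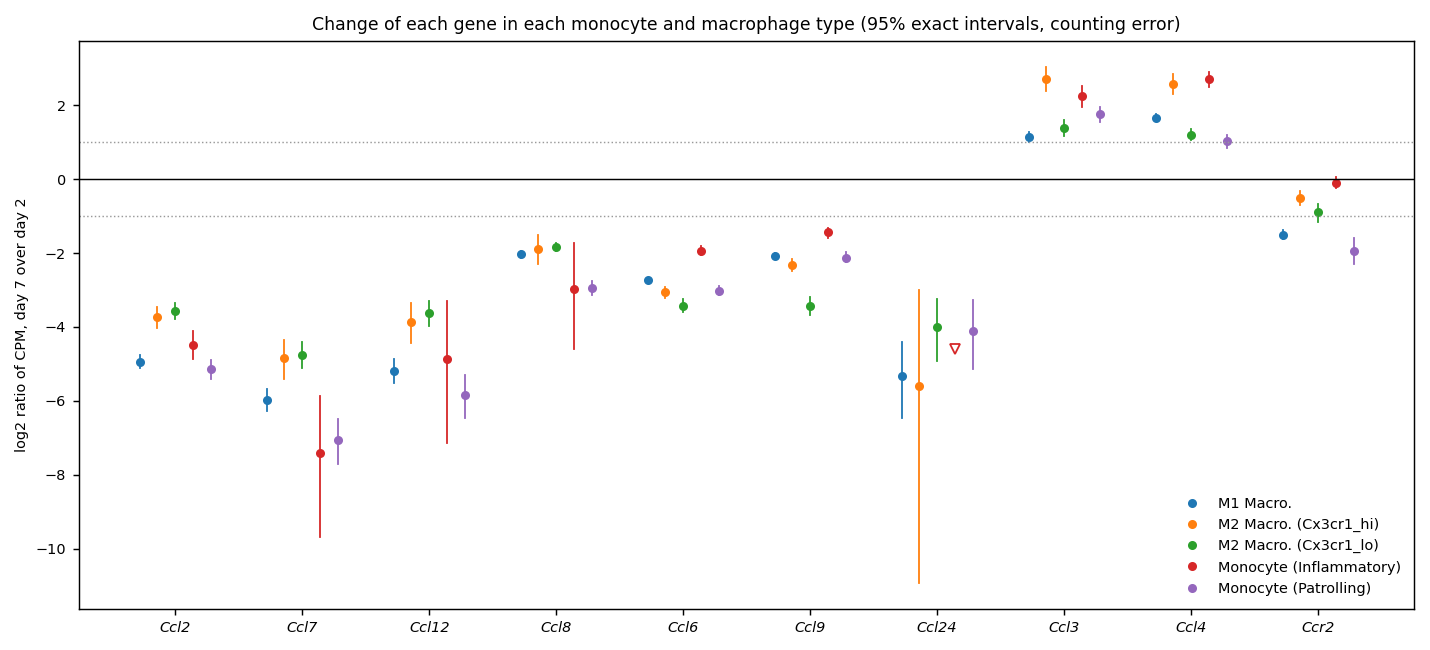
Log2 ratio of CPM at day 7 over day 2 for each gene in the 5 monocyte and macrophage types with at least 50 cells in both libraries. Points are ratios of sums, bars are 95% exact intervals for counting error, dotted lines mark 2-fold, and the open triangle is a bound for a gene with 0 counts at day 7. Ccl3 and Ccl4 lie above the upper dotted line in all 5 types and Ccr2 spreads from -0.09 to -1.93.

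Ccl3 and Ccl4, also called MIP-1alpha and MIP-1beta, went one way in monocytes and macrophages and the opposite way over all kept cells. In monocytes and macrophages Ccl3 was at 127 CPM at day 2 and 382 CPM at day 7, a 3.0-fold rise (log2 ratio 1.58, 1.5 to 1.67). Ccl4 was at 234 and 683 CPM, a 2.92-fold rise (log2 ratio 1.54, 1.48 to 1.60). Each rose past 2-fold in all 5 types. Ccl3 rose most in M2 macrophages with high Cx3cr1 (6.54-fold, 99.1 to 648 CPM) and Ccl4 most in inflammatory monocytes (6.48-fold, 132 to 853 CPM). Ccl4 rose least in patrolling monocytes, from 191 to 388 CPM (log2 ratio 1.03, 0.85 to 1.20), so its interval includes changes under 2-fold. The summed stress genes rose in all 5 types as well. They went from 10757 to 23018 CPM in inflammatory monocytes and from 11093 to 20792 CPM in M2 macrophages with high Cx3cr1. Their rise was least in patrolling monocytes (7949 to 10895 CPM), and their part was not tested. Over these 5 types taken singly, 7 of the 10 genes were lower past 2-fold in every type and 2 were higher past 2-fold in every type, where 4.53 and 4.59% of 6839 genes were.

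Over all kept cells, however, Ccl3 had 14418 counts at day 2 and 3459 at day 7, and Ccl4 had 21872 and 7222. The day 2 counts were in neutrophils, which held 5599 CPM of Ccl3 and 7951 CPM of Ccl4 and 75.6 and 70.8% of all counts in cells. The 708 neutrophils of day 2 carried neutrophil markers at 30538 CPM. Only 10 cells had that name at day 7, where the same markers were at 3339 CPM and basophil and mast cell markers at 1747 CPM, so no ratio is given. In the 669 day 2 neutrophils without macrophage genes Ccl3 was at 5973 CPM and Ccl4 at 8626 CPM. After thinning, 90.5% of the 537 neutrophils deep enough had a Ccl3 count and 84.4% a Ccl4 count, and 88.1% of those with Ccl3 also had Ccl4 against 49.0% of those without. Monocytes and macrophages held 14.6% of Ccl3 counts at day 2 and 83.1% at day 7.

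Dendritic cells, which present antigen to T cells, had the steepest rise of Ccl4. It went from 121 CPM in 170 cells at day 2 to 1206 CPM in 145 cells at day 7, a 9.96-fold rise (log2 ratio 3.32, 3.12 to 3.51; 90.8 and 1003 CPM without the richest barcode of each day), and Ccl3 went from 35.9 to 240 CPM, a 6.68-fold rise. At day 7 no type with 20 cells held more Ccl4. Macrophage genes marked 69 of the day 2 dendritic cells and 18 of those of day 7, and without these barcodes Ccl4 was at 162 and 1159 CPM. The stress genes moved with it, from 9212 to 28563 CPM summed, and their part was not tested. Of 8 genes with enough counts in dendritic cells 5 were lower and 2 higher past 2-fold, where 8.44 and 13.6% of 8138 genes were. Of the 5 that were lower, Ccl6 and Ccl9 did not stay past 2-fold without the barcodes with macrophage genes, at 129 and 119 CPM for Ccl6 and 223 and 155 CPM for Ccl9.

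The lymphocytes held Ccl3 and Ccl4 too, with an exception. NK cells were at 320 CPM of Ccl3 and 862 CPM of Ccl4 at day 2 (21 cells) and at 240 and 666 CPM at day 7 (111 cells). These NK values did not rest on the barcode with macrophage genes, without which day 2 was at 372 and 1040 CPM. T cells were listed at 3718 CPM of Ccl3 and 6115 CPM of Ccl4 at day 2. However, 17 of the 50 barcodes had 3 or more counts of the basophil and mast cell markers Mcpt8, Cpa3, Fcer1a, Ms4a2 and Cd200r3. Those 17 held 13689 CPM of Ccl3, 22562 CPM of Ccl4 and 5484 CPM of Ccl6, and the other 33 held 35.2, 40.2 and 131 CPM. None of the 293 T cells of day 7 had such markers, and they were at 33.2 and 91.0 CPM. The high levels listed for T cells at day 2 thus lay in barcodes that go against the name.

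**Figure D4:**
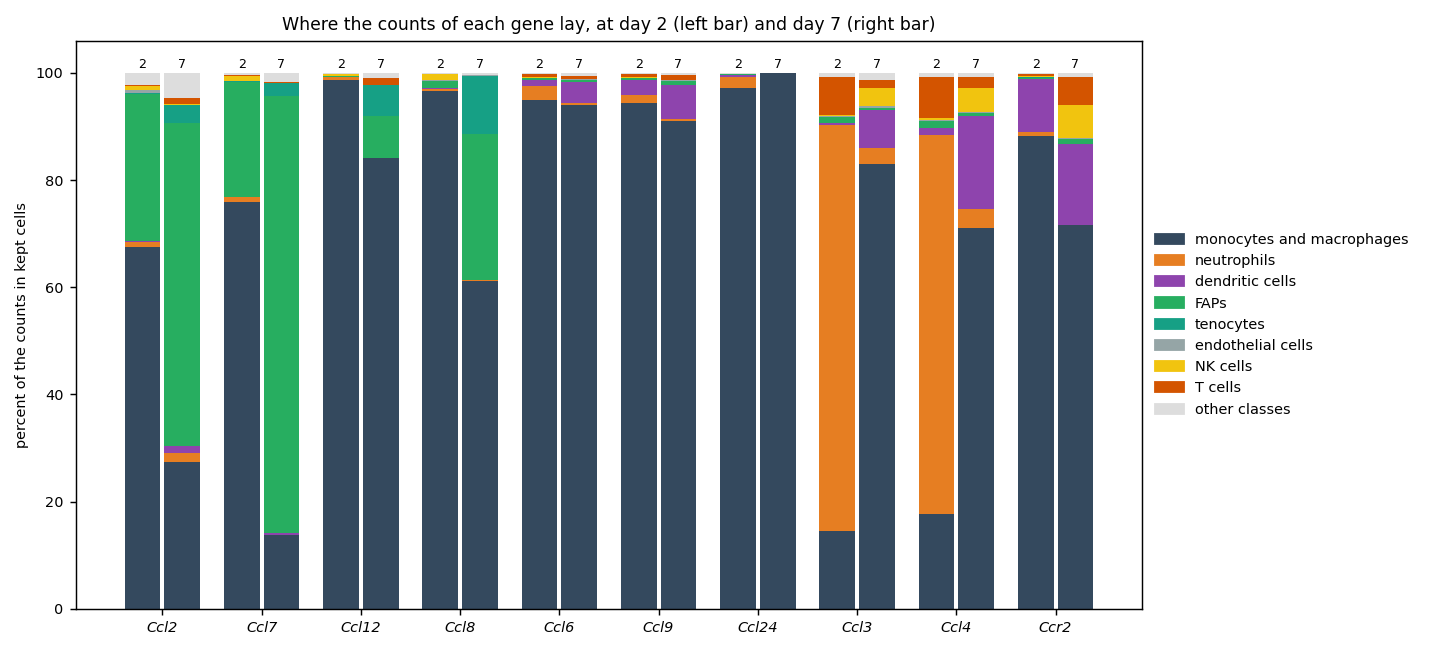
Percent of each gene's counts in kept cells that lay in each class of cells, at day 2 (left bar) and day 7 (right bar). The share of FAPs in Ccl7 goes from 21.4 to 81.6%, and neutrophils hold 75.6% of Ccl3 and 70.8% of Ccl4 at day 2.

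Ccr2 itself changed less than its ligands, and not in every type. It was at 508 CPM in monocytes and macrophages at day 2 and at 234 CPM at day 7, a 2.17-fold fall (log2 ratio -1.12, -1.19 to -1.04). As a mean over cells the fall was under 2-fold (log2 ratio -0.89). In inflammatory monocytes it was at 812 CPM in 276 cells at day 2 and 762 CPM in 84 cells at day 7, which the counts could not tell apart (log2 ratio -0.09, -0.25 to 0.06). In M1 macrophages it fell 2.83-fold from 530.5 to 188 CPM, and in patrolling monocytes, the lowest of the 6 types on both days, 3.82-fold from 203 to 53.1 CPM. Both M2 types fell by less than 2-fold, from 491 to 346 CPM with high Cx3cr1 and from 472 to 253 CPM with low Cx3cr1. M1 and both M2 types lay close together at day 2, with intervals that met in the order of levels.

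Other carriers of Ccr2 were dendritic cells, at 432 and 357 CPM (log2 ratio -0.27, -0.45 to -0.10), NK cells at 287 and 310 CPM (357 and 311 CPM without barcodes with macrophage genes), and T cells at 88.1 and 80.0 CPM (log2 ratio -0.14, -0.78 to 0.55). Dendritic cells without macrophage genes were at 303 and 323 CPM, so their small fall did not hold there. T cells without basophil and mast cell markers were at 80.4 CPM at day 2. Neutrophils were at 37.5 CPM at day 2, but at 8.24 CPM in the 669 without macrophage genes, since 59 of their 73 counts lay in the other 39. With the fall in macrophages, dendritic cells went from 9.77 to 15.1% of the Ccr2 counts in cells and NK cells reached 6.18%. Capillary endothelial cells had 0 counts in 159 cells at day 2, which allows a share of up to 1.89% of cells with a Ccr2 count, and 2 counts in 149 cells at day 7. Of thinned monocytes and macrophages 56.6% had a Ccr2 count at day 2 and 30.5% at day 7, against 0 of 155 and 1.34% of 149 capillary cells.

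How often a gene was seen in cells was set against a type that should lack it. In monocytes and macrophages at day 2 (median depth 11696 counts) 94.7% of cells had a Ccl2 count before thinning and 81.9% after it. In the 29 B cells of day 2 (median 2775 counts) these shares were 13.8 and 3.85%, or 4 of 29 and 1 of 26 cells. For Ccl3 and Ccl4 the thinned shares in monocytes and macrophages were 14.3 and 17.4% at day 2 and 32.9 and 33.1% at day 7, against 1.94 and 2.58% and then 0.671% and 0 of 149 in capillary endothelial cells. For Ccl7 the shares in macrophages were 61.6 and 5.31%, for Ccl12 35.4 and 5.84%, for Ccl8 20.1 and 15.3%, and for Ccl24 14.6 and 0.930%.

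Ambient RNA, read from raw barcodes of 1 to 100 counts, moved with the cells. It held 1125 CPM of Ccl2 at day 2 and 100.3 CPM at day 7, 779 and 79.3 CPM of Ccl6, and 301 and 119 CPM of Ccl3. At day 2, 8 of the 10 genes were higher in monocytes and macrophages than in ambient RNA, and Ccl3 and Ccl4 were lower (log2 ratios -1.24 and -0.76). At day 7 Ccl3 and Ccl4 were above it (1.68 and 1.79), Ccl7 was below it (-1.14, -1.38 to -0.91) and Ccl2 could not be told apart from it (0.09, -0.07 to 0.26). The correction for ambient RNA removed 2.90% of the counts of kept cells at day 2 and 2.57% at day 7. At these shares free RNA would on average add 32.6 CPM of Ccl2 and 8.72 CPM of Ccl3 at day 2 and 2.58 and 3.06 CPM at day 7.

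Another 27 genes were listed, the rest of the CC system with Cx3cr1 and Cx3cl1 of the CX3C family. Of them, 9 had enough counts in monocytes and macrophages. Of these 5 were higher at day 7 past 2-fold and 1 was lower, where 19.3% of 11318 genes were higher and 12.8% lower. Their median log2 ratio, with Cx3cr1 included, was 1.30, against -0.02 over all genes tested. Among the 5, Ccl11 had 13 and 18 counts and Ccr7 12 and 17. Their log2 intervals (0.49 to 2.75 and 0.48 to 2.83) reach under 2-fold. The 1 lower past 2-fold was Ccr1, the receptor for Ccl6, Ccl9 and Ccl3, which went from 273 to 10.2 CPM (log2 ratio -4.74, -5.08 to -4.41). Ccl5, an attractant of T cells and monocytes, rose from 3.88 to 191 CPM (log2 ratio 5.62, 5.26 to 6.00), and Cx3cr1, the fractalkine receptor, from 11 to 294 CPM. Ccrl2, an atypical receptor that binds chemerin, rose from 114 to 282 CPM. Ccl25 was at 7.22 and 5.32 CPM, and 4 of the 27, Ccl20, Ccr4, Ccr8 and Ackr2, had no count in the class, so the mouse receptor for Ccl8 was not detected there. Cx3cr1 gave its name to annotated types, so its change is no separate evidence about them.

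Over the same 41 sums of types by day, and among 9205 genes with at least 500 counts, the genes most like each member were as follows. Ccr2 ran with Ms4a6c (r 0.93) and Fcer1g (0.92). Ccl6 ran with Alox5ap (0.94), Adam8 and Nlrp3, and Ccl9 with Alox5ap (0.95), Wfdc17 and Adam8. Ccl12 ran with the scavenger receptor gene Msr1 (0.90), Pf4 and Plin2, Ccl8 with Pf4 (0.81), Ctsb and Snx8, and Ccl24 with Nxpe5 (0.88), F13a1 and Msr1. Ccl3 ran with Tyrobp (0.87), Cd53 and Osm, and Ccl4 with Tyrobp (0.89), Bcl2a1b and Was. Ccl2 and Ccl7, which FAPs also held, had partners about as distant as those of Ccl8, at 0.81 for Por and 0.80 for Pdpn, a gene of stromal cells. Among the members themselves the closest pairs after Ccl6 and Ccl9 were Ccl3 and Ccl4 (0.95), Ccl2 and Ccl7 (0.90) and Ccl8 and Ccl12 (0.833), each of them neighbours in 1 of the 3 groups on chromosome 11. Close behind came Ccl12 and Ccl24 (0.826), which lie on different chromosomes. Ccl9 and Ccr2, also on different chromosomes, were at 0.81. The neighbours Ccl2 and Ccl12 (0.73) and Ccl7 and Ccl12 (0.70) were lower, so closeness in level did not follow position throughout.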

How the data were processed

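Libraries of 2 mouse muscles were used, 1 at day 2 and 1 at day 7. The authors deposited UMI counts (whole numbers) for all barcodes and again for those called as cells, made with Cell Ranger against mm10 (3.1.0 per the processing notes, 3.0.1 in the file headers). They also deposited estimated counts corrected for ambient RNA with SoupX, and a table of cell type names from their integration of many data sets, made after putative doublets had been removed with DoubletFinder. Kept cells had a name and at least 750 genes, 1000 transcripts and at most 30% mitochondrial transcripts in the corrected counts. No further doublet call was made, and barcodes with 3 or more counts of another cell's markers were set apart as described.

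Counts as deposited were summed over cells per type and day and given as CPM. Levels have exact Poisson, shares Clopper-Pearson and ratios conditional binomial intervals (95%), and a count of 0 was set to 3 counts for a bound, also on a share. PCR duplicates were collapsed by UMI, and intervals cover counting error only. Cells were thinned to 2000 counts where said, which left out 201 and 118 kept cells. Types needed 20 cells for a level and 50 in both libraries for a ratio. Genes named were the 10 members, 27 others of the CC and CX3C systems and the 3 genes most like each member by Pearson r of log2(CPM + 1). Members and lists were chosen with earlier results of these data known, and the marker splits by macrophage genes and, in FAPs, neutrophil markers were added after the data were seen, as were levels without the barcode richest in a gene. Motifs were chosen after the data were seen, and a further pattern, meant for C/EBP, was searched and dropped after its matches were seen because its letters are no standard consensus. The ratio was checked on simulated counts with 200 changed genes. These were drawn with counting error only, as the interval assumes, so the check cannot speak to the spread between cells or mice. The alternatives tried are given in the closing section. Python 3.11.15, numpy, scipy, pandas and Biopython were used. The uninjured and other time points of the study were not analysed here. Values of 1 gene of the CC system are not reported here.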

Additional observations from a re-analysis of the deposited data

Results flagged for a closer look

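Some types moved opposite to monocytes and macrophages between the days, with intervals on both sides that exclude no change. The differences between types were not tested, since each day was 1 library. Ccl3 and Ccl4, which were higher at day 7 in monocytes and macrophages, were lower in T cells (log2 ratios -6.81 and -6.07), where 17 of 50 day 2 barcodes with basophil and mast cell markers held 1006 of 1013 and 1658 of 1666 counts. They were lower in smooth muscle (-2.42 and -2.91, from 17.8 and 33.3 CPM) and in pro-remodeling FAPs (-3.13 and -0.92, from 7.41 and 10.3 CPM), and Ccl4 was lower in capillary endothelial cells (-2.64, from 26 counts to 3). In day 2 smooth muscle the barcode richest in each gene held 29 of 91 Ccl3 and 70 of 170 Ccl4 counts. Without it the levels were 12.2 and 19.6 CPM. Ambient RNA held 301 CPM of Ccl3 and 398 CPM of Ccl4 at day 2 and 119 and 198 CPM at day 7, and its part in these low levels was not tested. Ccl8 was higher in pro-remodeling FAPs (1.57, from 37.9 to 113 CPM), and without barcodes with macrophage genes it was at 38.1 and 114 CPM.

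The comparisons left out called barcodes that met the limits on quality but carried no cell type name, 680 at day 2 and 477 at day 7. They held 43104 and 2421 counts of the 10 genes. Ccl2 in them was at 2189 and 56.9 CPM, Ccl6 at 1754 and 117 CPM, and Ccl4 at 268 and 189 CPM.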

How the results depend on the processing

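No paired analysis was possible because each day was 1 library. All 10 log2 ratios in monocytes and macrophages kept their direction under the 8 alternatives. A total of 18 values moved. Of these 1 was the share of genes higher past 2-fold, which has no counting interval. The rest were log2 ratios that moved past their counting interval. As means over cells they were -4.42 for Ccl2, -5.27 for Ccl7, -4.17 for Ccl12, -2.03 for Ccl8, -2.85 for Ccl6, -2.31 for Ccl9, -4.29 for Ccl24, 1.41 for Ccl3 and -0.89 for Ccr2, which is then under 2-fold. With the annotated types weighted equally they were -4.63 for Ccl2, -2.09 for Ccl8, -2.78 for Ccl6, -4.39 for Ccl24 and 1.70 for Ccl3. Ccl3 was 1.67 with SoupX values, and Ccl9 was -2.30 without barcodes holding basophil or neutrophil markers. Without the barcode richest in the gene, an alternative added after the data were seen, Ccl8 was -2.68. With a minimum of 100 counts, 12.8% of genes were higher past 2-fold in place of 19.3%. Of the other values (levels, ambient levels, shares of counts and of cells, and ratios in FAPs), 422 stayed within their interval and 127 moved past it. All 20 shares of monocytes and macrophages with a count moved with thinning. Only the 9 ratios in FAPs have a direction that could reverse, and all 9 stayed within their interval. With 1 mouse per day neither the spread between mice nor the effect of age or of dissociation on any gene can be estimated.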
